A study of Mus musculus with 7 samples.

Results

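The genes described here are 8 transcription factor genes tied to resting, quiescent T cells: the forkhead genes Foxo1, Foxo3, Foxp1 and Foxp3 and the Krüppel-like factor genes Klf2, Klf3, Klf6 and Klf13. They were chosen by name. Every row of the deposited peak list whose gene name was one of the 8 was taken, which gave 11 of the 6395 listed peaks, at 5 of the 8 genes. Foxp3, Klf2 and Klf3 had no row.

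The measurement was ATAC-seq, in which a transposase inserts adapters into open chromatin. The cells were splenic T follicular helper (Tfh) cells, a CD4 T cell type that supports germinal centre B cells, sorted as CD4+ CD44+ GITR- PSGL-1lo CXCR5hi PD-1hi from 5-month-old mice of the lupus-prone strain B6/Sle1.Yaa. There were 4 samples from mice given an antibody to IFNAR1, a chain of the type I interferon receptor, and 3 samples from mice given anti-rat IgG, dosed 2 times a week for 4 weeks. The treatment labels spell the target IFNA1 and the series title spells it IFNAR1. All 7 samples carried the Sle1 and Yaa loci, and the antibody went to the whole animal, so cells other than Tfh cells were exposed too. The labels do not say whether a sample was 1 mouse or a pool.

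FOXO proteins are held in the cytoplasm when PI3K and AKT signal, and enter the nucleus when that signal ends, where FOXO1 keeps genes of T cell survival and homing active, Klf2 among them. KLF2 in turn drives S1pr1, the receptor that lets T cells leave lymphoid tissue, and both FOXO1 and KLF2 restrain the formation of Tfh cells. FOXP1 holds naive T cells at rest and also restrains Tfh cells, and FOXP3 is the defining factor of regulatory T cells. Type I interferon signals through STAT proteins to the interferon-stimulated genes.

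The list compares 1 anti-IFNAR1 side with 1 control IgG background, and holds peaks that were higher on the anti-IFNAR1 side. Peaks higher in control IgG were not analysed here, nor were values of single samples, and the spread between mice is therefore missing throughout. Pileup, fold and q are given per peak as the authors' deposited table has them. The pileup is the number of fragments over the peak's highest base, the summit, scaled by 0.283 because the anti-IFNAR1 side was 3.54 times deeper. Pooling 4 and 3 libraries of equal depth would give 1.33, and which libraries entered each side is unknown. The control background is the local coverage that the caller expected there. Greater opening in each cell, a larger share of cells with the site open and a difference in quality between the libraries of the sides cannot be told apart. Of 6 T and Tfh markers, Cd3e, Cd4, Pdcd1 and Bcl6 had a listed peak and Cxcr5 and Icos had none, and none of 8 markers of B, CD8 T and NK, myeloid and regulatory T cells had one.

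The sequence before the start of Foxo1 and Foxo3 is shown because a listed peak covers part of it. Both stretches are the 250 bases before the RefSeq start (GRCm38.p6, the same build as mm10), chr3:52268087-52268336 on the plus strand and chr10:42276696-42276945 on the minus strand, and capitals mark the bases inside a listed peak. The file's lengths equal end minus start, so the start position may be counted from 0, and the capital letter at the edge of each capital run that faces the lower-case letters may then lie outside the peak.
Foxo1: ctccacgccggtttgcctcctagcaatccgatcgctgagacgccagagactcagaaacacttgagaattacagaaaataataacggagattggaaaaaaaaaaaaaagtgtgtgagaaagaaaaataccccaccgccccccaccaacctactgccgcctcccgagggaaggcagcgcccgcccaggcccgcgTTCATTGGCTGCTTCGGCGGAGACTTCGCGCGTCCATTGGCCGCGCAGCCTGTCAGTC
Foxo3: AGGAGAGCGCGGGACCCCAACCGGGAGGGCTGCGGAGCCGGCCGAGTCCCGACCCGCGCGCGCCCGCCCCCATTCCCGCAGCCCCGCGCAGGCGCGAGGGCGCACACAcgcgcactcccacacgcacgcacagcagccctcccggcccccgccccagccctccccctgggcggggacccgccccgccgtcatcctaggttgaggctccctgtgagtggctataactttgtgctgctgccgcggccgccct
In Foxo1 the peak took in the bases next to the start and ran on into the gene. In Foxo3 it took in the bases farthest from the start, and the bases next to the start lay outside any listed peak.

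Of the Krüppel-like factor genes, Klf13 and Klf6 had listed peaks around their starts and Klf2 had none. Their 250 bases before the start are chr7:63938916-63939165 on the minus strand, chr13:5861239-5861488 on the plus strand and chr8:72318812-72319061 on the plus strand. Capitals mark a KLF box (GGGNGTGG) or a GC box (GGGCGG) on either strand, 2 motifs that can overlap and that zinc fingers of the KLF and SP families can bind.
Klf13: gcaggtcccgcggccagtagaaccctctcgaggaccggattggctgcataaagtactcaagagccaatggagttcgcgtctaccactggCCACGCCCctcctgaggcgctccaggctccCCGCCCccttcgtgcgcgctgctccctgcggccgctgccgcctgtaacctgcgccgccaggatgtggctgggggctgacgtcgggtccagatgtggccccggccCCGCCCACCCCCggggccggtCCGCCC
Klf6: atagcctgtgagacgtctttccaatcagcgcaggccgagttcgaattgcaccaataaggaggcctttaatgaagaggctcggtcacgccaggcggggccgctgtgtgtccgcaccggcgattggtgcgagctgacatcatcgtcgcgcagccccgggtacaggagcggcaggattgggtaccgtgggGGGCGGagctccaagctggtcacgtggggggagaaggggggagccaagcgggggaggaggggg
Klf2: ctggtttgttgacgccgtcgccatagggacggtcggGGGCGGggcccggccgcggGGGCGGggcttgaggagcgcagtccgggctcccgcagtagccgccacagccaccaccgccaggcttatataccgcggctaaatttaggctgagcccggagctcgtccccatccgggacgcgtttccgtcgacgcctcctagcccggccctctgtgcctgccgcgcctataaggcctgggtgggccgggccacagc
Klf13 held 2 KLF boxes, and no other member promoter held one. Both boxes lay outside the listed peaks. Apart from the bases next to the start, the stretch printed for Klf13 lay in the gap between the peak that ends at the start and the upstream peak. The stretch printed for Klf6 lay outside the listed peaks, between the peaks on each side of it.

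Of the 8 genes, 5 (62.5%) had a listed peak, against 21.1% of all 21900 protein-coding genes of RefSeq. Foxo1, Foxo3, Foxp1 and Klf13 each had a peak with a fold of at least 5, and 9.58% of all protein-coding genes had one. Foxp1 and Klf13 had 3 peaks each, as 0.356% of protein-coding genes had at least 3. These genes were chosen with results known, and many of the background genes are silent in T cells, so the shares are a description. When any listed peak within 5 kb of a gene counted, the number stayed at 5 of 8, against 29.1% of protein-coding genes.

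**Figure D1:**
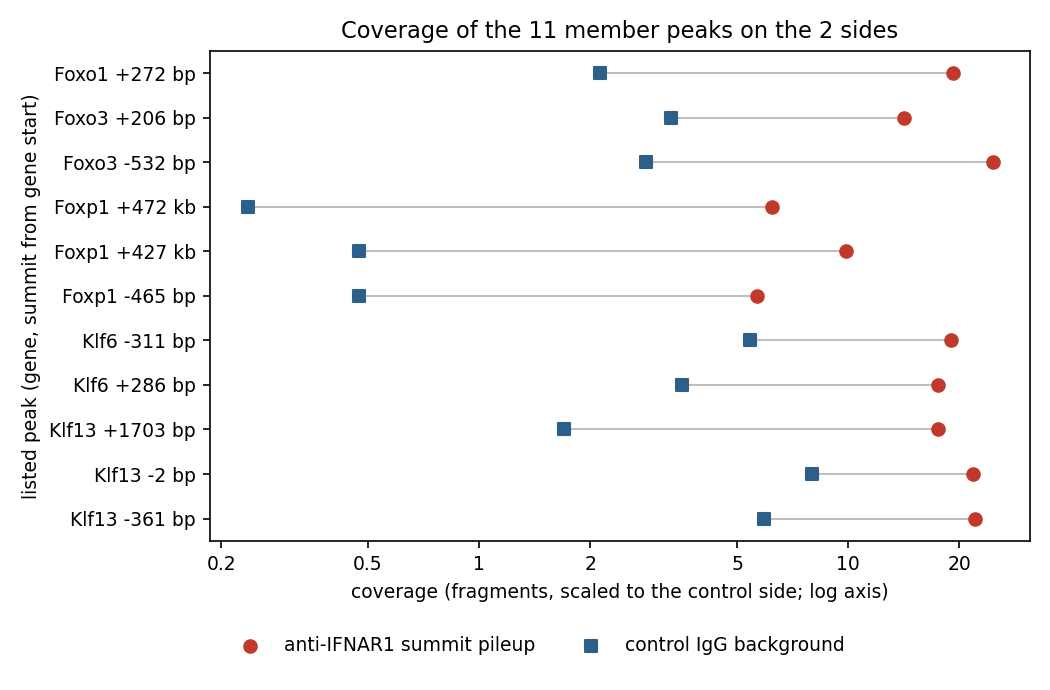
Coverage at each of the 11 listed peaks of Foxo1, Foxo3, Foxp1, Klf6 and Klf13, named by the distance of the summit from the RefSeq gene start (rows), in fragments scaled to the control side on a log axis. Red circles are the summit pileup of the anti-IFNAR1 side and blue squares the control IgG background; the 3 Foxp1 peaks have the lowest values on both sides, and the Klf13 peak at the gene start has the highest control background, 8 fragments.

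Foxo1, whose product links loss of growth signals to homing and survival genes, had 1 assigned peak. It lay at the gene start, on chromosome 3 from 52268279 to 52269191, with its summit 272 bp into the gene. The anti-IFNAR1 side had a pileup of 19.2 (68 fragments) and the control IgG side a background of 2.12. The fold was 6.47 and the q 2.87e-09. Without the pseudocount of 1 that the caller adds to both sides, the ratio was 9.05, with an exact 95% interval of 4.50 to 20.6 that counts the noise of both sides. The peak ranked 578 of 6395 by q.

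A further listed peak lay inside the Foxo1 gene, from 52269435 to 52270762, and the file assigned it to the antisense transcript Gm20402. It had a pileup of 13.0 on the anti-IFNAR1 side and a background of 2.00 on the control IgG side, with a fold of 4.67. ATAC-seq reads no strand, so this site cannot be given to one of the overlapping genes. An unlisted gap of 244 bp separated it from the peak at the Foxo1 start.

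Foxo3, a close relative of FOXO1 that also acts in cell death and stress responses, had 2 peaks, 1 on each side of its start. The upstream peak, on chromosome 10 from 42276838 to 42278114, had the smallest q of all 11 (2.67e-11, rank 281). Its summit, 532 bp before the RefSeq start, had a pileup of 24.6 on the anti-IFNAR1 side and a background of 2.83 on the control IgG side, a fold of 6.68. The peak inside the gene, from 42275801 to 42276558 and placed in a 5′ UTR exon, had a pileup of 14.1 on the anti-IFNAR1 side and a background of 3.30 on the control IgG side. Its fold was 3.52 and its q 0.00274. The ratio without pseudocount was 8.68 (exact 95% interval 4.73 to 17.5) upstream and 4.28 (2.33 to 8.38) inside, and these intervals overlap. The difference between the Foxo3 peaks was not tested.

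The listed peaks most like the upstream Foxo3 peak in pileup and fold, by distance on the log2 scale over the list, were TSS peaks of Neurl4 and Mrm1, each with a pileup of 24.9 and a fold of 6.75, and of Sertad2, with 25.2 and 6.54. This likeness rests on 2 numbers per peak from 1 comparison.

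**Figure D2:**
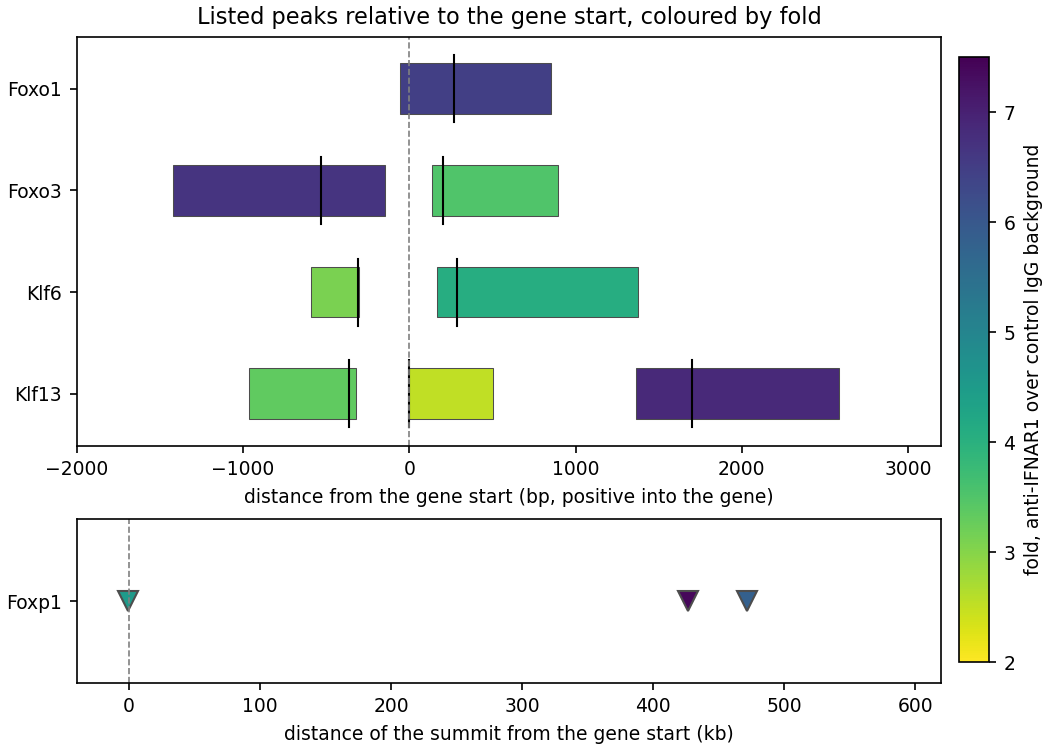
Position of the listed peaks along the direction of transcription, with the RefSeq gene start at 0 (dashed line). Upper panel: peaks of Foxo1, Foxo3, Klf6 and Klf13 as bars, in bp, with the summit as a black line; lower panel: summits of the 3 Foxp1 peaks in kb; colour gives the authors' fold of the anti-IFNAR1 side over the control IgG background, and the darkest marks are the Foxp1 peak at 427 kb (7.40) and the Klf13 peak at 1703 bp (6.86).

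Foxp1, the forkhead gene of naive T cell rest, had 3 peaks spread over a gene of 597 kb on chromosome 6. The strongest lay at the start of an inner transcript (Foxp1-019), from 99095208 to 99096188 and 427 kb inside the gene. It had a pileup of 9.89 on the anti-IFNAR1 side and a background of 0.472 on the control IgG side, and its fold of 7.40 was the highest of the 11 peaks, with a q of 5.93e-07. The peak from 99050686 to 99050927, 472 kb inside the gene and in a 5′ UTR exon of the same transcript, had a pileup of 6.22 on the anti-IFNAR1 side and a background of 0.236 on the control IgG side, a fold of 5.84 and a q of 2.10e-05. At 241 bp it was close to the shortest length of the list, 236 bp.

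The third Foxp1 peak, from 99522606 to 99523213, lay at the outermost start of the gene, where the file names a noncoding processed transcript. It had a pileup of 5.65 on the anti-IFNAR1 side and a background of 0.472 on the control IgG side, a fold of 4.52 and a q of 0.0105. The Foxp1 peaks held 22, 35 and 20 anti-IFNAR1 fragments, in the order of their positions on the chromosome, and the control background came from 1, 2 and 2 fragments in a window of 1 kb. Ratios without pseudocount were 26.4 (exact 95% interval 4.26 to 1090), 21.0 (5.39 to 180) and 12.0 (2.91 to 106), so their size is poorly known. None of the 3 RefSeq promoter windows available for Foxp1 overlapped a listed peak. No window was available for the outermost RefSeq start, which the third peak covered.

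Klf13, a zinc finger gene known in T cells for its part in chemokine gene expression, had 3 peaks around its start on chromosome 7. The peak from 63936331 to 63937554 had its summit 1703 bp inside the gene, at the start of a transcript with a retained intron (Klf13-004). There the pileup was 17.5 on the anti-IFNAR1 side and the background 1.70 on the control IgG side, at a fold of 6.86 (q = 5.70e-09). Its background was counted as 72 control fragments in a window of 10 kb, which also spans the other Klf13 peaks.

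The peak that ends at the Klf13 start, from 63938409 to 63938921, had a pileup of 21.8 on the anti-IFNAR1 side and 8 control IgG fragments at the site itself. Its fold of 2.53 was the lowest of the 11, at percentile 0.383 of all folds in the list, with a q of 0.0261. The upstream peak, from 63939235 to 63939881, had a pileup of 22.1 on the anti-IFNAR1 side and a background of 5.90 on the control IgG side, a fold of 3.34 and a q of 0.000160. Over the Klf13 peaks the anti-IFNAR1 pileup ranged from 17.5 to 22.1 and the control IgG background from 1.70 to 8 fragments. The ratio without pseudocount was 10.3 (exact 95% interval 7.22 to 14.7) at the inner site, 2.72 (1.31 to 6.53) at the start and 3.74 (2.36 to 6.12) upstream. The windows behind these intervals differ in size. With the most control fragments that the background allows at the site itself, the ratio was 17.5 (3.03 to 703) at the inner site, 2.72 (1.31 to 6.53) at the start and 4.41 (1.81 to 14.0) upstream. The intervals at the site itself overlap, whereas over the windows the inner interval lay above those at the start and upstream. The difference between the Klf13 peaks was not tested.

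Klf6, a zinc finger gene induced early by many stimuli, had 2 peaks on chromosome 13, 1 on each side of its start. The upstream peak, from 5860901 to 5861186, had a pileup of 18.9 on the anti-IFNAR1 side and a background of 5.43 on the control IgG side, a fold of 3.10 and a q of 0.00523. The peak in coding exon 1, from 5861656 to 5862866, had a pileup of 17.5 on the anti-IFNAR1 side and a background of 3.54 on the control IgG side, a fold of 4.08 and a q of 9.79e-05. Klf6 was the only gene of the 5 with no peak at a fold of at least 5. An intergenic peak 15.7 kb before Klf6, which the file gives to no gene and which was picked out after its values were seen, had a pileup of 13.9 on the anti-IFNAR1 side and a background of 1.18 on the control IgG side, a fold of 6.81 and a q of 2.68e-07.

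Klf2, which keeps T cells circulating, had no listed peak within 100 kb. The nearest, assigned to Hsh2d, lay 129 kb away. Klf3, a mainly repressive family member, also had none within 100 kb, and the nearest, assigned to Mir574, lay 136 kb away. For Foxp3, a peak of Plp2 lay 75.2 kb away, with a pileup of 6.5 on the anti-IFNAR1 side, a background of 0.330 on the control IgG side and a fold of 5.64. An unlisted gene may be equally open on both sides, more open in control IgG mice or closed. It may also be more open on the anti-IFNAR1 side but short of the caller's q threshold. The list cannot tell these apart. The sort kept GITR- cells, and GITR is abundant on regulatory T cells. Whether this bears on the missing Foxp3 row was not tested.

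**Figure D3:**
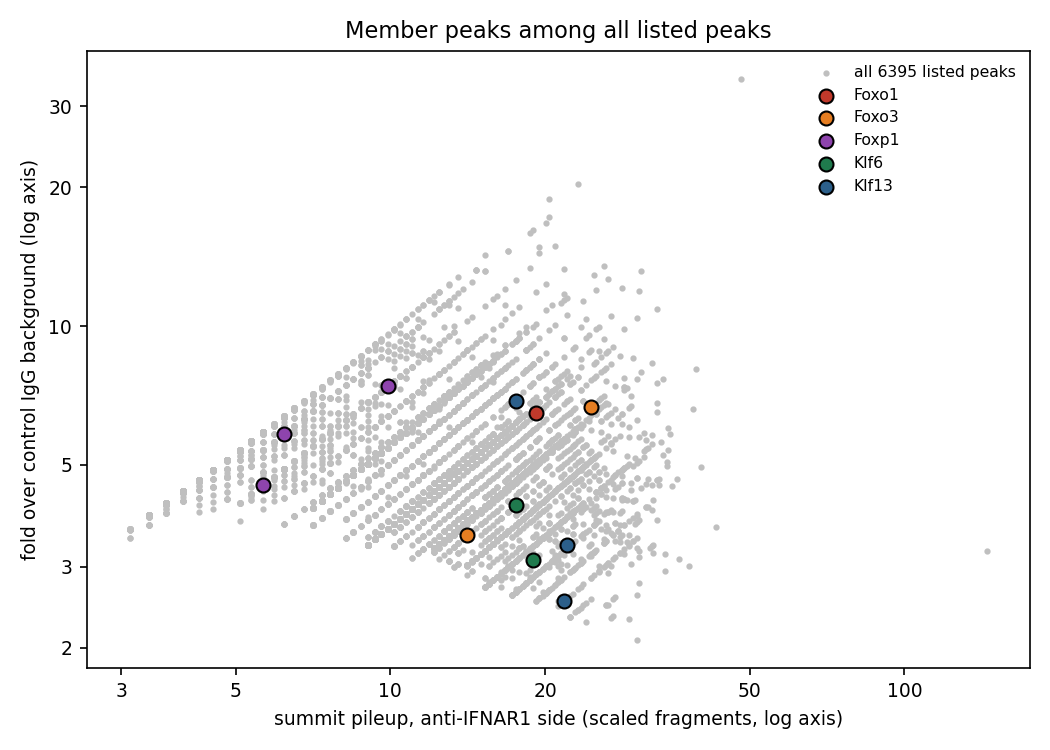
Summit pileup of the anti-IFNAR1 side (scaled fragments, log axis) against fold over the control IgG background (log axis) for all 6395 listed peaks (grey) and the 11 peaks of Foxo1, Foxo3, Foxp1, Klf6 and Klf13 (coloured). The 3 Foxp1 peaks sit at pileups of 5.65 to 9.89, and the other 8 peaks at 14.1 to 24.6.

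Set beside the whole list, the 11 peaks had higher medians of coverage on both sides and a median fold near that of the list. The 3 Foxp1 peaks lay below the list's medians of coverage on both sides. The median pileup of the 11 peaks was 17.5 on the anti-IFNAR1 side, against 11.6 over the list. The median control IgG background of the 11 was 2.83, against 1.49 over the list. The median fold was 4.52, against 4.74 over the list, and 5 of the 11 had a fold of at least 5, against 42.2% of all listed peaks. The file placed 8 of the 11 (72.7%) at a transcript start, as for 72.4% of all listed peaks, and 2 of these 8 starts were those of transcripts with no coding sequence. The 8 peaks had a median fold of 5.50, against 4.76 over the other 4624 peaks at transcript starts. The median length was 757 bp, against 539 bp over the list.

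Among the 11 peaks, the 5 with a control IgG background of at least 3 had folds of 2.53 to 4.08, and the 6 below it had folds of 4.52 to 7.40. The background is the divisor of the fold, so the order of the folds is in part fixed by it. The pileups of these sets overlapped, at 14.1 to 22.1 and 5.65 to 24.6.

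At Foxo3, Klf6 and Klf13, listed peaks faced each other over an unlisted stretch at the gene start. The gaps were 280 bp at Foxo3, 470 bp at Klf6 and 314 bp at Klf13. At Klf13 the summits lay 4 bp and 41 bp from the gap, at Klf6 8 bp and 119 bp, and at Foxo3 69 bp and 389 bp. Over the whole list, 47.1% of 242 neighbouring pairs at most 1000 bp apart had each summit nearer to the gap than to the far edge of its peak. The other Klf13 pair, 855 bp apart, and the pair of Foxo1 and Gm20402 did not. A summit within 10 bp of a peak's edge was found in 3 of the 11 peaks, at Foxp1 (2 bp), Klf13 (4 bp) and Klf6 (8 bp), against 5.32% of all listed peaks. The list does not give the coverage inside the gaps.

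The start regions of the members were rich in G, C and CpG. Of the 8 genes, 7 had at least 1 RefSeq promoter window (250 bases before to 50 after the start) with over 50% GC and a CpG ratio, observed over expected, above 0.6, and Foxp3 was the one without. Such genes were listed more often in general: 35.4% of 8411 protein-coding genes with such a window had a listed peak. The share was 8.82% of 9081 genes that had promoter windows but none of this kind. Protein-coding genes with no promoter window available are in neither set. Klf2, at 69.3% GC and a CpG ratio of 0.889, and Klf3, at 76.7% and 0.659, had such windows and no listed peak. The part of base composition in the count of 5 of 8 was not tested.

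Of 11 promoter windows of the members, none held the forkhead core TGTTTAC, the pair of GAAA repeats (GAAA, any 2 bases, GAAA) of interferon-stimulated response elements, or the ETS core CCGGAAGT on either strand. Over all 32851 windows, 3.65%, 3.44% and 3.89% held them, and at such low shares an absence from 11 windows says little. Only the windows of Foxo1, Foxo3 and Klf13 held bases inside a listed peak (108, 108 and 56), so most sequence under the peaks was not searched. The KLF box was in 1 of 11 windows, that of Klf13, against 17.6% of all, and the GC box, a motif chosen after the sequences were seen, was in 8 of 11, against 35.7%. The GC box windows included those of Klf2 and Klf3. These 8 windows had 60.3% to 76.7% GC, against a median of 52.7% over all windows. The share of CpG-rich windows with a GC box was not computed.

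**Figure D4:**
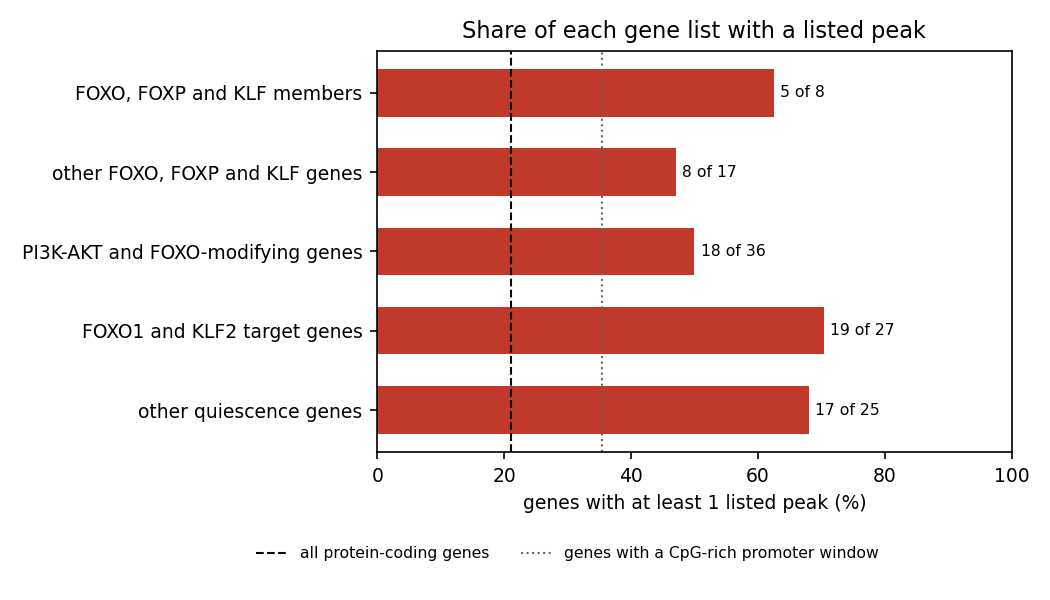
Share of each gene list with at least 1 listed peak (%, bars, with counts), beside the share over all protein-coding genes (dashed line, 21.1%) and over protein-coding genes with a CpG-rich promoter window (dotted line, 35.4%). Every list lies above both lines, from 47.1% for the other FOXO, FOXP and KLF genes to 70.4% for the FOXO1 and KLF2 target genes.

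Of 17 other genes of the FOXO, FOXP and KLF families, 8 (47.1%) had a listed peak, against 21.1% of protein-coding genes. Klf7 led them, with 2 peaks and a fold of 5.78 at its start (pileup 28.0 on the anti-IFNAR1 side, background 4.01 on the control IgG side). Foxp4 had folds of 5.73 and 4.00, Klf4 4.15, Klf9 3.93, Foxp2 3.88, Klf11 3.19, Klf10 3.02 and Klf16 2.74. The Foxp2 peak held 12 anti-IFNAR1 fragments over the genome-wide control rate of 0.132, and the Klf4 peak lay at the end of the gene. Foxo4, Foxo6, Klf1, Klf5, Klf8, Klf12, Klf14, Klf15 and Klf17 had none. The median fold of the strongest peak per gene was 3.91, against 6.68 for the 5 listed members and 4.85 over all listed protein-coding genes.

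Upstream of FOXO, 18 of 36 genes (50%) of PI3K and AKT signalling and of FOXO modification had a listed peak. The share over all protein-coding genes was 21.1%. Among those with the smallest q were Pik3r2, a regulatory subunit of PI3K (fold 7.51), and Ywhae, a 14-3-3 protein gene (7.99). At Pik3r2 the pileup was 33.1 on the anti-IFNAR1 side and the background 3.54 on the control IgG side, and at Ywhae the pileup was 15.0 on the anti-IFNAR1 side and the background 1.00 on the control IgG side. The median fold of the strongest peak per gene was 4.24, against 4.85 over all listed protein-coding genes.

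Downstream, 19 of 27 genes (70.4%) known as targets of FOXO1 or KLF2 had a listed peak, against 21.1% of all protein-coding genes. The median fold of the strongest peak per gene was 5.73, against 4.85 over all listed protein-coding genes. Txnip, an inhibitor of glucose uptake, had a fold of 10.4, Rbl2, a pocket protein of the resting cell cycle, 7.74, Ccng2, an atypical cyclin, 6.68, and Sesn3, a stress-response inhibitor of mTORC1, 6.43. Picked out after the values were seen, the homing genes S1pr1 and Ccr7 had peaks, with a fold of 5.73 at S1pr1 and of 4.97 and 4.19 at Ccr7, whereas Il7r, a survival receptor gene, had none. The S1pr1 background was 1 control fragment, and the ratio without pseudocount was 10.5 (exact 95% interval 1.76 to 424). Tcf7 and Bcl6 stand in this list and are Tfh genes as well. Of 25 other quiescence genes, 17 (68.0%) were listed, against the same 21.1% of all protein-coding genes. They were led by Cdkn2c, a cyclin-dependent kinase inhibitor (7.32), Zfp36, an mRNA decay factor (6.63), Btg1, an antiproliferative gene (5.62), and Elf4, an ETS factor of T cell quiescence (7.21). Of the genes with a RefSeq promoter window in the table used, 6 of 10 other family genes, 24 of 29 upstream genes, 16 of 21 targets and 18 of 21 other quiescence genes had a CpG-rich one, and their part in these counts was not tested. The lists were written with earlier results of these data known and carry no test.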

How the data were processed

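The submitters' processing notes name BWA (0.7.9a), build mm10, MACS2 (2.1.0.20150420), bedtools, DESeq2 and DiffBind (2.0.7), without their roles. Neither the shift of cut sites nor the handling of duplicates is stated in these sources. The authors' deposited file is 1 peak list of IFN over Ig, read from its peak names as anti-IFNAR1 over control IgG. Pooling of each side was assumed. Per the file headers, its signal is the summit pileup and its fold a ratio over the local control background. Headers of 2 deposited columns were damaged. Their place in the table is that of −log10 p and −log10 q, so the q-values and p-values are the authors'. Recomputed Poisson values of −log10 p differed from the deposited ones by at most 0.000125. Positions are printed as the file gives them.

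All 6395 pileups were whole multiples of 0.283 (tolerance 0.005), which gave fragments per summit. The background was solved from the fold with the pseudocount of 1. It came from the site for 2379 peaks, a 1 kb window for 2832, a 10 kb window for 540 and the genome rate for 644. The fragment length was 236 bp. A 1 kb window cannot be told from a 10 kb window with 10 times the fragments, and the smaller was assumed. That gives the wider interval. Ratios have exact conditional (Clopper-Pearson) 95% intervals, which cover counting error only, and summits were picked for being high, which tilts ratios upward. Depth per sample is unknown. The decoding and intervals were tested on simulated data.

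Gene symbols were matched to RefSeq (GRCm38.p6). All 8 genes matched, and their 11 promoter windows and printed sequences are from RefSeq. The text names every peak of the 8 genes, every family gene, listed peaks within 100 kb of a member without a row or inside a member, the 3 peaks most like the strongest one, and the 4 genes with the smallest q per further list, some of which are not reported here. The members and lists were chosen with earlier results of these data known. The planned fits per sample were not run, since no column carries a sample. Python 3.11.15, pandas 2.3.3, numpy 2.4.6 and scipy 1.17.1 were used.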

Additional observations from a re-analysis of the deposited data

How the results depend on the processing

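The alternatives were a q of 0.01 or 0.001, a pileup of at least 10, a fold of at least 5 and any peak within 5 kb of the gene. Of the 8 genes, 4 or 5 were listed under each of them. Listed peaks fell to 7 at a q of 0.001 and 5 at a fold of at least 5, against 11 as deposited, and peaks at transcript starts to 5 and 4, against 8. Other family genes fell to 5 and 2, against 8, and PI3K-AKT genes to 11 and 8, against 18. At a fold of at least 5, target genes fell to 11, against 19, and other quiescence genes to 8, against 17. These settings keep fewer peaks by construction. At a fold of at least 5, 9.58% of all protein-coding genes had a peak, and the other family genes, at 2 of 17, were near that share. The share of all genes at a q of 0.001 was not computed. With the strongest peak per gene, the median fold was 6.68, against 4.52. Without the pseudocount, ratios are above the fold by construction, and with the most control fragments at the site the ratio of the inner Klf13 peak was 17.5, against 10.3 over its 10 kb window. No paired analysis was possible because no column of the file carries a sample, and leaving out replicates was not run for the same reason. The Foxp1 ratios rest on 1 or 2 control fragments each.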
